A study of Mus musculus with 5 samples.

Results

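The transcripts described here are those of 42 genes that act in DNA replication and the S phase of the cell cycle, among 12267 genes measured on mouse exon arrays. They were taken by name from rows of the deposited table that carry 1 gene symbol, with the brightest row standing for a gene that has several, and all 42 had a row. The arrays profiled thymocytes sorted for CD4 without CD8, called CD4 single-positive (CD4SP) cells, from C57BL/6J mice aged 4 to 6 weeks. The 3 PLZF transgenic arrays came from mice with a PLZF transgene and the 2 wild type arrays from mice without it. PLZF is a transcription factor with zinc fingers, known as the regulator that gives NKT cells their innate-like character. Each sample was made from pooled mice and is called a biological replicate in the labels. The promoter that drives the transgene is not given in the sources used here. Zbtb16, which encodes PLZF, and Cd4 and Cd8a were not analysed here, so neither the genotype nor the sort could be checked on them. The comparison asks whether the transcripts of the replication programme differ between CD4SP thymocytes of the genotypes.

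Replication starts at origins where the origin recognition complex and CDC6 load the ring-shaped MCM helicase, which CDC45, the GINS complex and MCM10 then switch on. Primase and DNA polymerase alpha lay down primers, the RFC complex loads the PCNA clamp, and polymerases extend the new strands while histone chaperones rebuild chromatin behind the fork. Transcription of many of these genes is switched on by E2F factors when cyclin-dependent kinases, cyclin E among their partners, release them from proteins of the retinoblastoma family. In the thymus most division takes place in immature cells, and most CD4SP cells are not dividing.

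E2F factors bind a short element, here searched as the words TTTGGCGC, TTTCGCGC, TTTCCCGC and TTTGCCGC on both strands, in RefSeq promoters (GRCm38.p6) that run from 250 bases before to 50 after a gene's start. Of the 42 genes, 35 had such a promoter and 12 of these, or 34.3%, held at least 1 of the words, against 318 of 9410, or 3.38%, over all genes tested with a promoter. The stretches below, written 5′ to 3′ on the gene's strand, show where the words lie in genes whose values are given further on, with the words in capitals. A match is a description of letters and not a mapped binding site.
Bard1: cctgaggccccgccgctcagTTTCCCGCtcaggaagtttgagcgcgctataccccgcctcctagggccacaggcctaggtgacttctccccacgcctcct
Mcm6: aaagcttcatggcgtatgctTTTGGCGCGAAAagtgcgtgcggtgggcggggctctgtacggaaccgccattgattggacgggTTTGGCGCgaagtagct
Cdca7: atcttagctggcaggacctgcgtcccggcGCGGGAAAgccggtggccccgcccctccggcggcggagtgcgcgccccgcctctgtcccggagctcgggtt
E2f3: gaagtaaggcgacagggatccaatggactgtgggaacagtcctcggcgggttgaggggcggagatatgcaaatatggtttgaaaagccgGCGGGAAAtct
Dtl: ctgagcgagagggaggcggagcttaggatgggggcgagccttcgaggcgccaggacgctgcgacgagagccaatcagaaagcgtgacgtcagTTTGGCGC
The Bard1 stretch is chr1:71103102-71103201 on the minus strand, and the Mcm6 stretch chr1:128359736-128359835 on the minus strand. The Cdca7 stretch is chr2:72476119-72476218 on the plus strand, the E2f3 stretch chr13:29986064-29986163 on the minus strand and the Dtl stretch chr1:191575545-191575644 on the minus strand. In Mcm6 the words TTTGGCGC and TTTCGCGC, the second read on the other strand, overlap and so form 1 run of capitals, and a second copy of TTTGGCGC follows. E2f3 and Dtl were added to these stretches after their values were seen.

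Values are given as log2(intensity + 1), the scale of every level below, and a change is the mean of the transgenic arrays minus the mean of the wild type arrays on that scale. The arrays' median intensities were 59.0 to 60.3. All 42 genes had a mean above 5.63, the 25th percentile over the genes tested. Of all genes tested, 67.2% had the same value in several arrays. Among the 42 genes, 25 did, and Dut had 1 value in all 5 arrays. In bulk RNA, fewer cells in cycle and less transcript per cycling cell cannot be told apart.

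Of the 42 replication and S phase genes, 1 fell and none rose in PLZF transgenic CD4SP cells, with a limma p adjusted over all genes and a threshold of 0.05. Over all genes tested the test called 4.74%, with 3.02% lower and 1.72% higher, so 1 of 42 is no more than the share of genes called at large. At an unadjusted p under 0.05, 7 of the 42 genes were lower and 1 was higher, against 9.74% and 7.07% of all genes. The median change of the 42 was -0.05, beside 0 over all genes tested, and the changes ran from -0.47 to 0.30. In 14 genes all 3 transgenic arrays lay below both wild type arrays, a pattern of 15.1% of all genes, and in 2 genes all lay above, as in 12.6% of all genes. In 26, or 61.9%, the groups overlapped, against 72.3% of all genes. Among the 17 genes with a different value in each array, the groups did not overlap in 14, against 63.1% of the genes of that kind at large. In 12 of these all transgenic arrays were below, against 35.3% at large. No change reached 0.5 in size, against 4.35% of all genes. Of the 42 genes, 22, or 52.4%, changed by less than 0.1, against 67.0% of all genes.

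**Figure D1:**
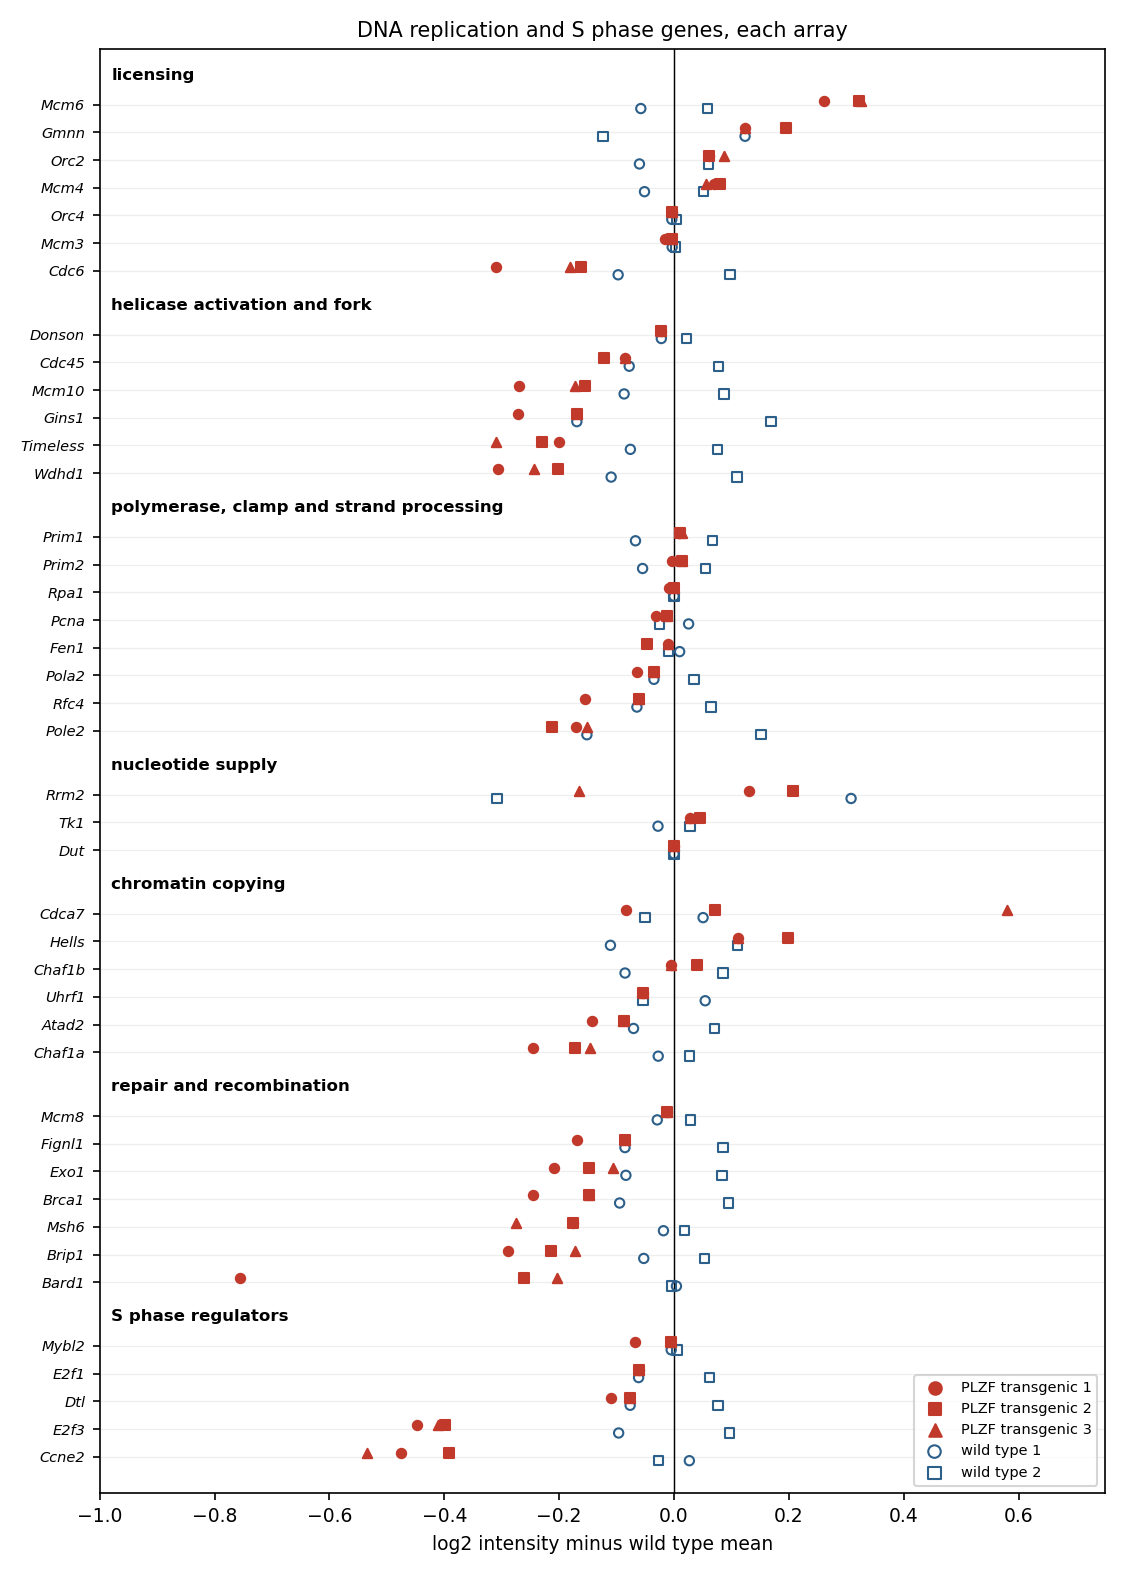
Log2(intensity + 1) of each gene in each array, minus the mean of the 2 wild type arrays (x axis), with genes on the y axis grouped by role. Filled red marks are the 3 PLZF transgenic arrays and open blue marks the 2 wild type arrays, with the mark's shape giving the replicate number. Ccne2 and E2f3 have the lowest changes (-0.47 and -0.42) and Mcm6 the highest (0.30).

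The regulators of S phase entry held the only gene past the test. Ccne2, which encodes cyclin E2, the partner of CDK2 at the start of S phase, had levels of 7.62, 7.71 and 7.57 in PLZF transgenic arrays, against 8.13 and 8.07 in wild type arrays. Its 3 transgenic values lay below both wild type values with a gap wider than the spread within either group. It fell to 7.63 ± 0.07 (SD, n = 3) in transgenic cells, against 8.10 ± 0.04 (SD, n = 2) in wild type cells, a change of -0.47 ± 0.05 (SE) or 1.38-fold (limma adjusted p = 0.0435). With any 1 of the 5 arrays left out the change stayed between -0.51 and -0.43. With 1 transgenic array left out over all genes, however, the limma adjusted p was 0.0991 to 0.192. E2f3, an activator E2F named after its values were seen, had levels of 8.27, 8.32 and 8.31 in transgenic arrays, against 8.62 and 8.82 in wild type arrays. The transgenic arrays lay close together and below both wild type arrays, with a change of -0.42 ± 0.07 (SE) and a limma adjusted p of 0.0796. E2f3 passed the threshold after quantile normalization (limma adjusted p = 0.00957), after cyclic loess (0.0284) and among genes with 5 different values (0.017). It did not pass in the other fits that kept both wild type arrays, where its limma adjusted p was up to 0.289. E2f1, another activator E2F, had the same level of 8.29 in all 3 transgenic arrays and in wild type replicate 1, and 8.41 in wild type replicate 2. The genotypes therefore overlapped for E2f1 (change -0.06 ± 0.04, SE). Dtl, the substrate receptor of a ubiquitin ligase that clears licensing factors in S phase, changed by -0.09 and Mybl2, an E2F target and transcription factor that acts later in the cycle, by -0.03, and both overlapped between genotypes.

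Licensing genes went both ways, and Mcm6 stood at the upper end of all 42. Mcm6, a subunit of the MCM helicase whose promoter stretch above holds 3 of the words, had levels of 10.08, 10.14 and 10.14 in transgenic arrays, against 9.76 and 9.87 in wild type arrays. All 3 transgenic arrays lay above both wild type arrays. Its mean was 10.12 ± 0.04 (SD, n = 3) in transgenic cells and 9.82 ± 0.08 (SD, n = 2) in wild type cells, a change of 0.30 ± 0.05 (SE) or 1.23-fold, with a limma adjusted p of 0.0732. Mcm6 passed after quantile normalization (limma adjusted p = 0.00603), after cyclic loess (0.0177) and among genes with 5 different values (0.0242). It did not pass in the other fits that kept both wild type arrays, where its limma adjusted p was up to 0.390. Over all genes, that p was 0.209 to 0.268 with 1 transgenic array left out. Mcm4, another subunit of the same helicase, also had all transgenic arrays above both wild type arrays, with a change of 0.07 ± 0.04 (SE). Mcm3, also a subunit of it, changed by -0.0072 and overlapped. The origin recognition complex subunits Orc2 (0.07) and Orc4 (-0.0039) overlapped between genotypes, as did Gmnn (0.15), the inhibitor of relicensing. Gmnn has another, dimmer row, which also overlapped, with a change of -0.02. Cdc6, the MCM loader, had levels of 6.32, 6.47 and 6.45 in transgenic arrays, against 6.53 and 6.73 in wild type arrays. The transgenic arrays were lower without overlap, but the wild type arrays differed from each other by more than the gap between genotypes (change -0.22 ± 0.09, SE, limma adjusted p = 0.387). Mcm7, a subunit measured outside the 42 and named after its values were seen, had all transgenic arrays below both wild type arrays. Its change was -0.22 ± 0.10 (SE, limma adjusted p = 0.458). The Mcm2 and Mcm5 subunits were not analysed here.

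Genes that switch on the helicase and run the fork were lower in mean in all 6 cases, against 5023 of all 12267 genes, and none passed the test. Wild type replicate 2 was alone highest in all 6 genes. The median difference of the transgenic mean was -0.07 against wild type replicate 1 alone and -0.30 against wild type replicate 2 alone. Wdhd1, an adaptor that ties polymerase alpha to the helicase, had the largest change of this group. Its levels were 8.72, 8.82 and 8.78 in transgenic arrays, against 8.92 and 9.14 in wild type arrays. The transgenic arrays lay below both wild type arrays, with a change of -0.25 ± 0.08 (SE) and a limma adjusted p of 0.290. Timeless, a component of the fork protection complex, had levels of 7.80, 7.77 and 7.69 in transgenic arrays, against 7.93 and 8.08 in wild type arrays. It too was lower without overlap (change -0.25 ± 0.07, SE, limma adjusted p = 0.194). Mcm10 (-0.20) and Cdc45 (-0.10) had all transgenic arrays below both wild type arrays. Gins1 (-0.20), a GINS subunit, and Donson (-0.02), a fork factor, overlapped, because wild type replicate 1 shared its value with transgenic arrays.

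In all 8 genes of polymerases, primase, clamp and strand processing the genotypes overlapped, as in 72.3% of all genes. Of the 8, 7 changed by less than 0.1, or 87.5% against 67.0% of all genes. Pole2, the second subunit of polymerase epsilon, had the largest change. Its levels were 8.32, 8.27 and 8.33 in transgenic arrays, against 8.33 and 8.64 in wild type arrays. Wild type replicate 2 alone stood above the others, and the change of -0.18 ± 0.11 (SE) had a limma adjusted p of 0.458. Pcna, the sliding clamp and a common marker of cycling cells, had levels of 7.90, 7.92 and 7.92 in transgenic arrays, against 7.96 and 7.91 in wild type arrays. The ranges of the genotypes overlapped, with a change of -0.02 ± 0.02 (SE). The primase subunits Prim1 (0.01) and Prim2 (0.0076), the polymerase alpha subunit Pola2 (-0.04), the single-strand binding protein subunit Rpa1 (-0.0029), the flap nuclease Fen1 (-0.02) and the clamp loader subunit Rfc4 (-0.09) did not pass the test. Fen1 has another, dimmer row, with levels of 5.46, 5.64 and 6.18 in transgenic arrays, against 6.78 and 6.23 in wild type arrays. On that row the transgenic arrays lay below both wild type arrays (change -0.75), while the row used here overlapped.

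**Figure D2:**
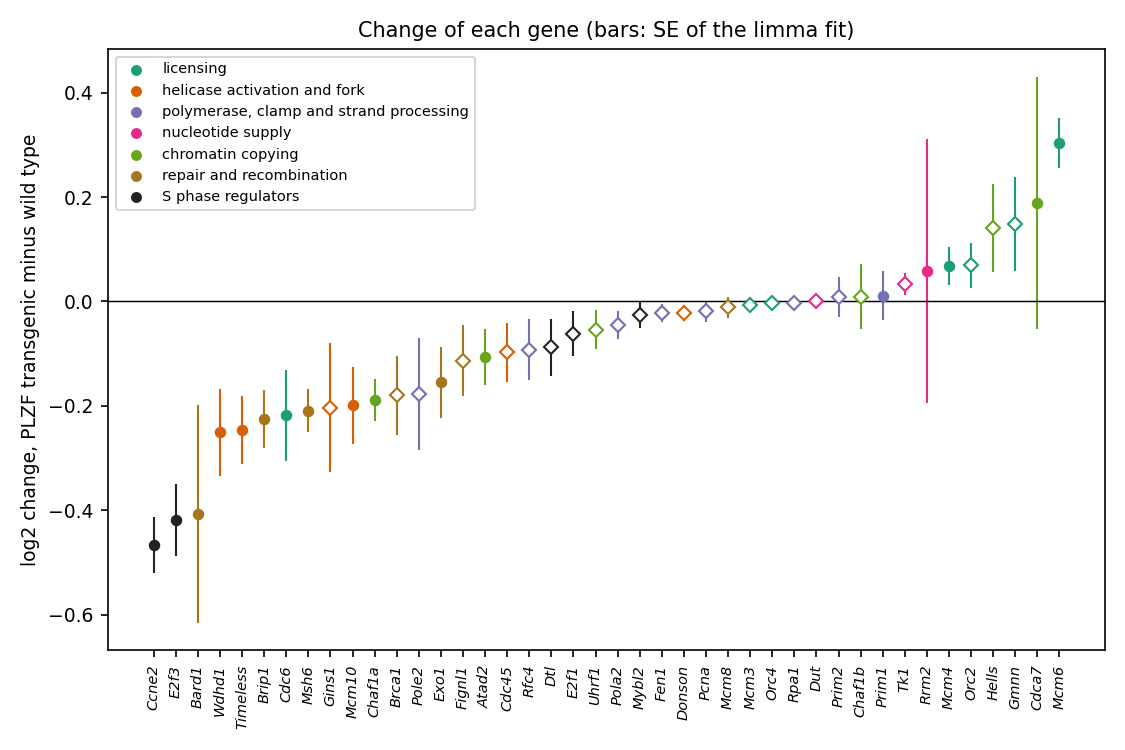
Change of each of the 42 genes (y axis, log2, PLZF transgenic minus wild type), ordered along the x axis and coloured by role, with bars for the SE of the limma fit. Filled circles are genes with 5 different values and open diamonds genes with the same value in several arrays. The changes run from -0.47 for Ccne2 to 0.30 for Mcm6, and most genes of polymerases and clamp lie near 0.

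The genotypes overlapped in all 3 genes of nucleotide supply. Rrm2, the small subunit of ribonucleotide reductase, had levels of 6.05, 6.13 and 5.76 in transgenic arrays, against 6.23 and 5.61 in wild type arrays. The wild type arrays were the highest and the lowest of the 5, and the change of 0.06 ± 0.25 (SE) changed sign with wild type replicate 2 left out (-0.25) or with transgenic replicate 2 left out (-0.02). Tk1, which encodes thymidine kinase, changed by 0.03, and Dut, which encodes the enzyme that removes dUTP, was at 8.45 in every array.

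Genes that copy chromatin behind the fork divided. Chaf1a, the large subunit of the histone chaperone CAF-1, had levels of 7.62, 7.69 and 7.72 in transgenic arrays, against 7.84 and 7.89 in wild type arrays. The transgenic arrays lay below both wild type arrays (change -0.19 ± 0.04, SE, limma adjusted p = 0.130). Chaf1a passed in 1 of 23 fits, after quantile normalization, and its limma adjusted p ran from 0.0406 to 0.626. Chaf1b, another subunit of the same chaperone, overlapped and changed by 0.0093. Atad2 (-0.11), a chromatin-bound ATPase, had all transgenic arrays below. Uhrf1 (-0.05), which guides maintenance of DNA methylation, and Hells (0.14), a chromatin remodeller, overlapped. Cdca7, a partner of HELLS, had levels of 7.87, 8.03 and 8.54 in transgenic arrays, against 8.01 and 7.91 in wild type arrays. Transgenic replicate 3 alone stood above the others, and without it the change of 0.19 ± 0.24 (SE) was -0.0061. The row used for Cdca7 stands among rows of chromosome 16 genes, with 0 of its 10 nearest named neighbours on chromosome 2, where the reference places Cdca7. The Cdca7 row that stands among chromosome 2 genes was at 6.75 or 6.76 in every array (change 0.0030).

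Genes of repair and recombination were lower in mean in all 7 cases, against 5023 of all 12267 genes, and none passed the test. Wild type replicate 2 was alone highest in 6 of the 7. The median difference of the transgenic mean was -0.09 against wild type replicate 1 alone and -0.24 against wild type replicate 2 alone. Bard1, the partner of BRCA1 in a ubiquitin ligase, had levels of 9.89, 10.39 and 10.44 in transgenic arrays, against 10.65 and 10.65 in wild type arrays. The wild type arrays were nearly equal and above all transgenic arrays, among which replicate 1 stood apart, and the change was -0.41 ± 0.21 (SE, limma adjusted p = 0.458). Without transgenic replicate 1 it was -0.23. Bard1 has 3 other rows with this symbol, with changes of -0.93, -0.47 and -0.06. On the first of these, levels were 5.49, 5.42 and 5.41 in transgenic arrays, against 6.46 and 6.28 in wild type arrays (adjusted p = 0.0575 over all rows of the table, limma). Brip1, a helicase that binds BRCA1, had levels of 7.70, 7.77 and 7.82 in transgenic arrays, against 7.94 and 8.04 in wild type arrays. Msh6, a mismatch recognition subunit, had 8.43, 8.44 and 8.33 in transgenic arrays, against 8.59 and 8.63 in wild type arrays. Both genes were lower without overlap, with limma adjusted p values of 0.164 and 0.115. Brca1 (-0.18) and the nuclease gene Exo1 (-0.15) also had all transgenic arrays below. Fignl1 (-0.11) and Mcm8 (-0.01), which act in homologous recombination, overlapped.

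Wild type replicate 2 was the highest array in many of these genes. It was alone highest in 27 of the 42, or 64.3%, against 26.8% of all genes tested. It exceeded wild type replicate 1 in 32, with a median difference of 0.11, against 5792 of all 12267 genes, with a median difference of 0. Against wild type replicate 1 alone, the median difference of the transgenic mean was -0.02, and against wild type replicate 2 alone -0.08. The mean level of the 42 genes was 8.15, 8.20 and 8.20 in transgenic arrays, against 8.23 and 8.30 in wild type arrays. All 3 transgenic means were below both wild type means, and the gap between the closest of them was smaller than the difference between the wild type arrays. Transgenic replicate 1 was alone lowest in 20 of the 42, against 2050 of all 12267 genes. The part of either array in these results was not tested beyond leaving it out.

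**Figure D3:**
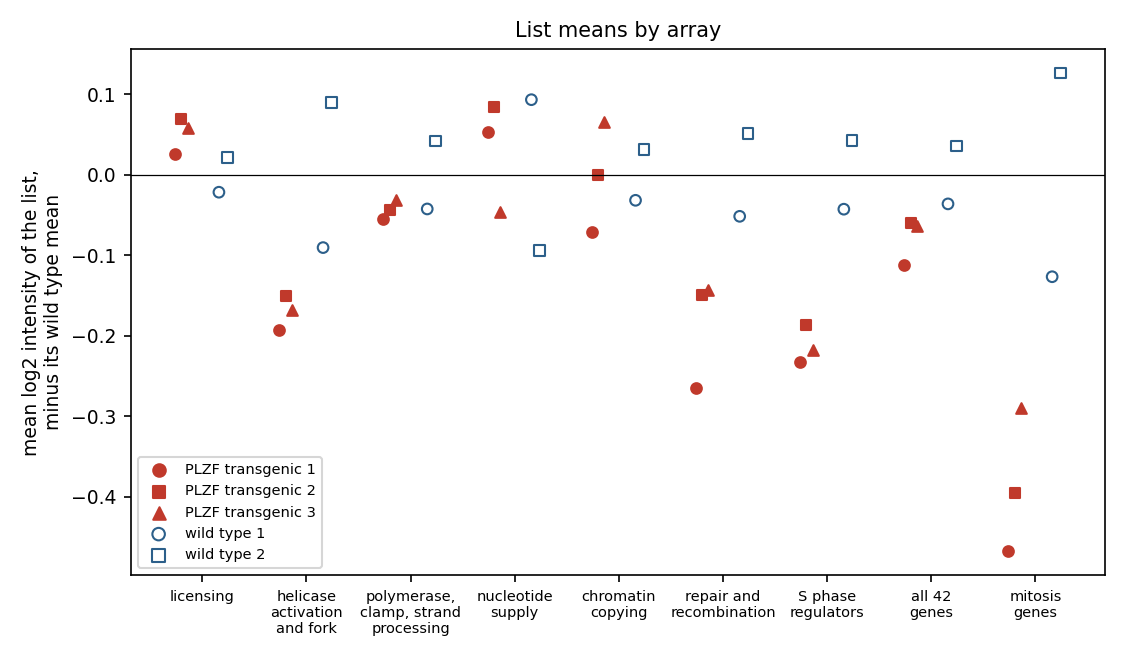
Mean log2 level of each role group, of all 42 genes and of 32 mitosis genes in each array, minus the mean of the 2 wild type arrays (y axis). Filled red marks are PLZF transgenic arrays and open blue marks wild type arrays. For all 42 genes the transgenic arrays stand at 8.15 to 8.20 before the subtraction, against 8.23 and 8.30 in wild type, and the mitosis genes lie further down.

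Other genes of the pathway were taken from lists chosen with earlier results of these data known. Of 13 measured regulators of the G1/S transition outside the 42, 3 fell and none rose, with a median change of -0.13, against 3.02% lower and a median of 0 over all genes tested. Rbl1, which encodes p107, a retinoblastoma family protein and itself an E2F target, had levels of 8.95, 8.98 and 9.01 in transgenic arrays, against 10.11 and 10.14 in wild type arrays. It fell by 1.14 ± 0.02 (SE) on the log2 scale, or 2.21-fold, and the limma adjusted p was 0.00699. E2f2, also an activator E2F, had levels of 7.35, 7.32 and 7.23 in transgenic arrays, against 8.16 and 8.46 in wild type arrays, or 2.01-fold lower (limma adjusted p = 0.0411). Lin9, a subunit of the complex that pairs with B-MYB on cell cycle promoters, changed by -0.34 ± 0.04 (SE, limma adjusted p = 0.0481). Among 15 measured cell cycle inhibitors and quiescence genes, 3 rose and 1 fell, or 26.7% called against 4.74% of all genes, with a median of -0.0065. Rb1, which encodes the retinoblastoma protein, had levels of 11.77, 11.69 and 11.72 in transgenic arrays, against 11.31 and 11.35 in wild type arrays, and rose by 0.40 ± 0.03 (SE, limma adjusted p = 0.0232). Tob1, an antiproliferative factor of resting T cells, rose 2.01-fold (limma adjusted p = 0.0140) and Ccng1, a p53 target, 1.35-fold (0.0200), whereas Foxo1, a factor of T cell quiescence, fell by 0.28 (0.0474). With transgenic replicate 1, 2 or 3 left out in turn over all genes, Rbl1 passed the threshold only without replicate 2. E2f2, Lin9, Rb1, Tob1, Ccng1 and Foxo1 passed in none of these fits, which called 0.0326%, 0.367% and 0.0815% of all genes. Among genes with 5 different values, Rbl1, E2f2, Rb1, Tob1 and Ccng1 passed without each transgenic array in turn. Lin9 passed there only without replicate 3, and Foxo1 in none of the fits. There 12.7% to 13.7% of the genes tested were called. The changes of all these genes kept their sign under every alternative run.

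**Figure D4:**
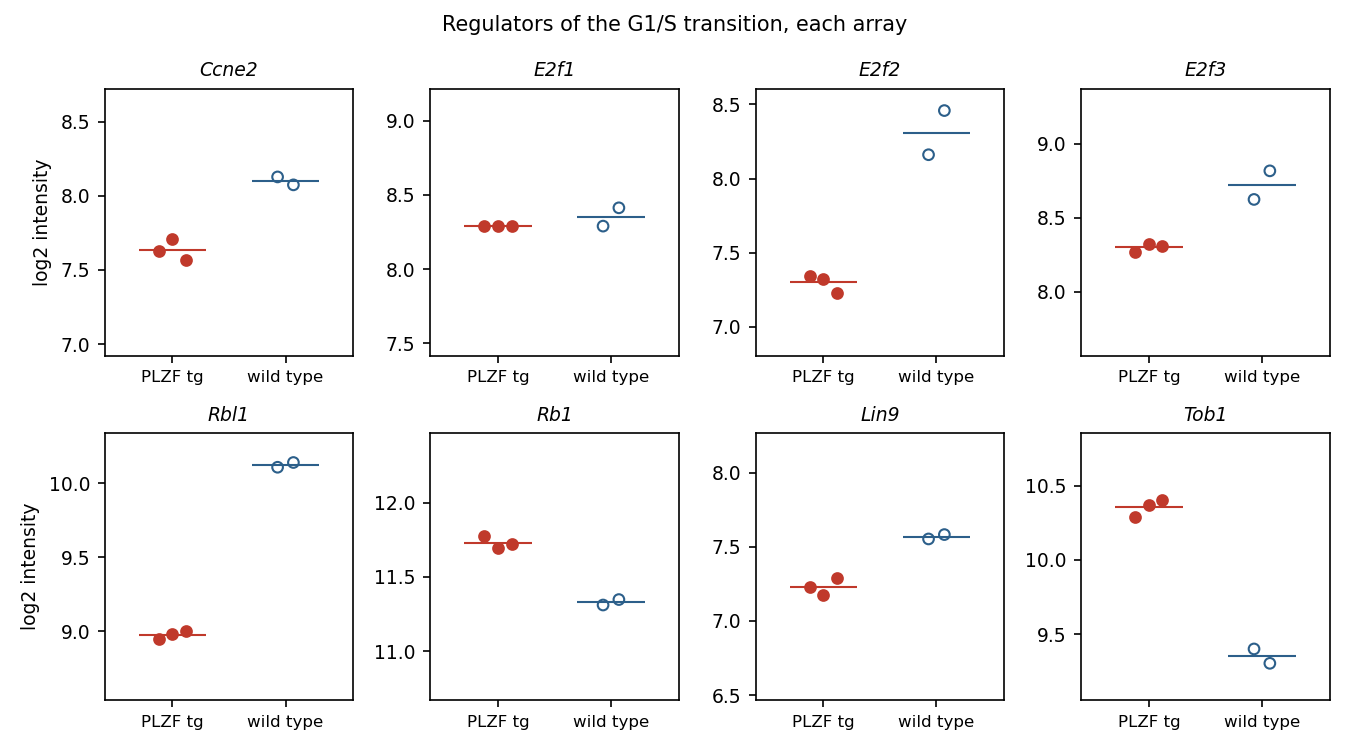
Log2(intensity + 1) of 8 regulators of the G1/S transition (y axes, each spanning the same range), with PLZF transgenic arrays (filled red, n = 3) left of wild type arrays (open blue, n = 2) and lines at the group means. Ccne2, E2f2, E2f3, Rbl1 and Lin9 stand lower in transgenic arrays, Rb1 and Tob1 higher, and E2f1 overlaps.

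Of 16 measured DNA replication genes outside the 42, none passed the adjusted test, against 4.74% of all genes. At an unadjusted limma p under 0.05, 3 were lower, against 9.74% of all genes, and the median change was -0.02. Top2a, the topoisomerase that untangles DNA before division, had levels of 9.11, 9.19 and 9.29 in transgenic arrays, against 9.64 and 9.91 in wild type arrays. Its change was the largest of that list (-0.58 ± 0.11, SE, limma adjusted p = 0.111). Of 11 nucleotide supply genes, 1 passed the test, or 9.09% called against 4.74% of all genes, and the median was 0. That gene, Samhd1, a phosphohydrolase that breaks down dNTPs, fell by 0.19 ± 0.02 (SE, limma adjusted p = 0.0385).

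Genes of mitosis, the phase that follows replication, had larger differences than the replication genes on the same arrays. Of 32 measured, 2 fell and 1 rose in the adjusted test, or 9.38% called against 4.74% of all genes. Their median change was -0.44, beside -0.05 for the 42 replication and S phase genes. Among genes with 5 different values these medians were -0.46 over 27 mitosis genes and -0.20 over 17 replication and S phase genes. All transgenic arrays lay below both wild type arrays in 28 of the 32 mitosis genes, against 15.1% of all genes. Among genes with 5 different values, where no repeated value can make the groups overlap, this held in 26 of 27 mitosis genes and 12 of 17 replication and S phase genes, against 35.3% at large. Smc4, a condensin subunit, fell by 0.65 ± 0.05 (SE, limma adjusted p = 0.0210), and Ube2c, a ubiquitin-conjugating enzyme of mitotic exit, had levels of 7.56, 7.59 and 7.64 in transgenic arrays, against 8.04 and 8.15 in wild type arrays (limma adjusted p = 0.0315). Pttg1, which encodes securin, the inhibitor of separase, was the member that rose (0.63 ± 0.06, SE, limma adjusted p = 0.0294). The change of Racgap1, a cytokinesis factor, was the largest in size (-0.74 ± 0.22, SE), with a limma adjusted p of 0.231. Over all genes, Smc4, Ube2c and Pttg1 did not pass with any 1 transgenic array left out. Those fits called 0.0326% to 0.367% of all genes. Among genes with 5 different values, each of them passed in every such fit (limma adjusted p 0.0160 to 0.0333). There 12.7% to 13.7% of the genes tested were called. The difference between the mitosis and replication lists was not tested, and wild type replicate 2 was alone highest in 31 of the 32 mitosis genes.

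**Figure D5:**
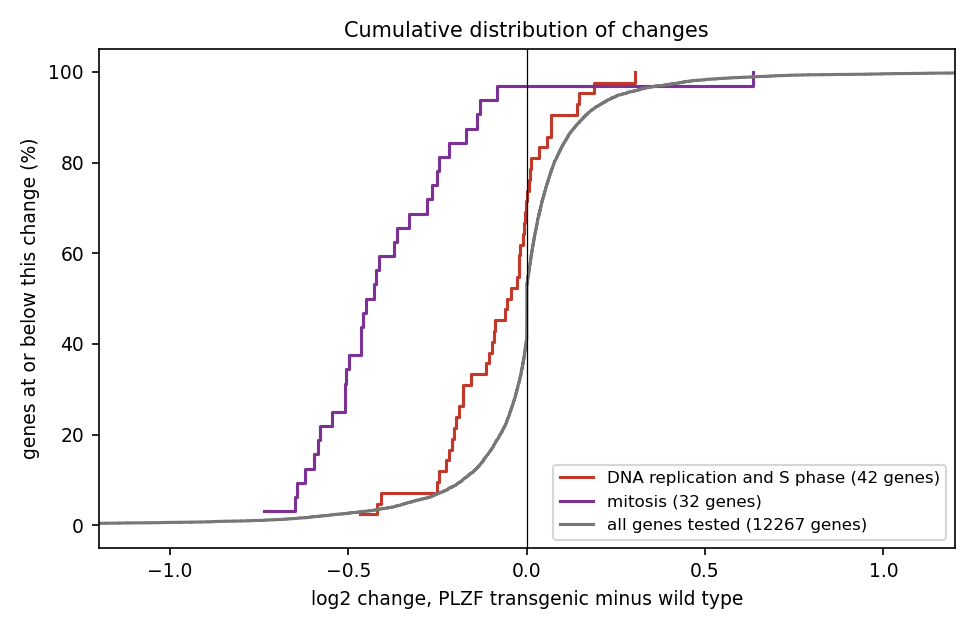
Share of genes (y axis, percent) at or below a given log2 change, PLZF transgenic minus wild type (x axis, drawn from -1.2 to 1.2), for the 42 replication and S phase genes, 32 mitosis genes and all 12267 genes. The median is -0.05 for the replication genes, -0.44 for the mitosis genes and 0 for all genes.

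The mean level of 6 measured B cell markers was 5.60 to 5.66 in transgenic arrays, against 5.57 and 5.62 in wild type arrays, and that of 10 myeloid markers was 6.24 to 6.38 in transgenic arrays, against 6.25 and 6.32 in wild type arrays. None of these 16 genes passed the adjusted test, against 4.74% of all genes. At an unadjusted limma p under 0.05, 2 were higher and 2 lower, against 7.07% and 9.74% of all genes. Blnk (-0.19) and Cd68 (-0.39) had the largest changes. Single myeloid markers went both ways, from -0.39 for Cd68 to 0.36 for S100a9, which the list's mean does not show. The 8 of 17 immature thymocyte markers that were measured averaged 7.24 to 7.36 in transgenic arrays, against 7.08 and 7.09 in wild type arrays. In that list only Il2ra, the interleukin-2 receptor alpha chain, passed the test (change 2.13), or 12.5% called against 4.74% of all genes. The next highest change in the list was 0.12. The median change of the 8 was 0.0098, and Dntt, the terminal transferase of immature thymocytes, had all transgenic arrays below both wild type arrays (-0.54, limma adjusted p = 0.244). Dntt was named after its values were seen, as was S100a9. Of the 2 erythroid markers measured Tfrc, the transferrin receptor that dividing cells also carry, had the larger change (-0.54, limma adjusted p = 0.0670). The 7 of 16 T cell markers that were measured averaged 10.84 to 10.87 in transgenic arrays, against 11.11 and 11.18 in wild type arrays, and 3 of them, or 42.9% against 3.02% of all genes, fell, Cd2 (-1.11), Cd5 (-0.36) and Cd28 (-0.21). The part of cell composition in the results above was not tested.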

How the data were processed

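RNA of sorted CD4SP thymocytes was amplified and hybridised to Affymetrix mouse exon arrays, 1 per sample. Per the submitters' processing notes, the tools were Affymetrix Expression Console and RMA (no versions given) and the build mm9. The deposited intensity values are linear, from 4.68 to 14527 in 65529 rows, and 14011 rows carry 1 gene symbol in the platform annotation. In its standard form RMA equalises the arrays' distributions, so a shift of most genes at once could go unseen. The values were taken as log2(intensity + 1), the brightest row was kept per gene, and transgenic minus wild type was fitted in R 4.3.3 with limma 3.58.1 (lmFit, eBayes) over 12267 genes, with 3 residual and 0.5 prior degrees of freedom and no filter on level. The Benjamini-Hochberg adjustment ran over all 12267 genes, with a threshold of 0.05. No permutation test was run, since 3 against 2 arrays allow no exact p under 0.1. The number of arrays limits the precision. Log2 values closer than 5e-06 were called the same, or closer than 0.0001 where the highest or lowest array was counted. The procedure was tested on simulated data with normal noise, which does not model the equal values that 67.2% of genes had in several arrays.

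The 42 genes, their role groups and the other lists were chosen with earlier results of these data known. Values of every array are given for genes past the threshold, for those with a change of at least 0.5 and for the largest change of each role group, and the other genes given by array (E2f3, E2f1, Cdc6, Timeless, Pcna, Chaf1a, Brip1, Msh6) were chosen after their values were seen. Of other lists, genes past the threshold and the largest change are named, with Mcm7, Dntt and S100a9 added after their values were seen. The list of other repair genes is not reported here. In those lists, genes without a row with 1 symbol were not analysed here. The reference tables (GRCm38.p6) gave promoters and chromosome names. Alternatives were a replicate block, a robust fit with an intensity trend, quantile normalization, cyclic loess, median centring, array weights, no pseudocount, a filter on dim genes, the mean of the rows of a gene, all rows, genes with 5 different values and each array left out. Chosen after seeing the data were leaving out each array among genes with 5 different values, and the Cdca7 row of chromosome 2.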

Additional observations from a re-analysis of the deposited data

How the results depend on the processing

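Of the 42 genes, 1 was called lower and 0 higher with all arrays. The lower count was 0 with the replicate block, with a trend and robust fit, with array weights and over all rows of the table. At an unadjusted limma p under 0.05, 8, 6, 1 and 7 were lower in these fits, in that order. Over all genes they called 0%, 3.35%, 0.00815% and 0.783%, so counts of 0 are near the share at large. The lower count was 4 after quantile normalization, 2 after cyclic loess and 2 among genes with 5 different values. The higher count was 1 in each of the last 3. These fits called 9.23%, 7.86% and 25.9% of all genes they tested, the last with 17 of the 42. With transgenic replicate 1, 2 or 3 left out in turn, 0 were lower and 0 higher. Those fits called 0.0326%, 0.367% and 0.0815% of all genes, so counts of 0 are near the share at large. Without wild type replicate 1 or 2, the 1 wild type array left is taken to vary as the transgenic arrays do. Genes with equal transgenic values then pass easily, so counts from fits with 1 wild type array are not given. Fits chosen after seeing the data left out 1 array among genes with 5 different values. With any 1 transgenic array left out, Ccne2 alone of the 17 was lower and 0 were higher, while 12.7% to 13.7% of the genes tested were called. The median change of the 17 was -0.24 to -0.14 with 1 array left out (-0.22 and -0.21 without transgenic replicates 2 and 3). The median over the 42 genes was -0.08 to -0.02 with 1 array left out. Over the pathway lists, 7 genes were lower and 4 higher. These counts were 0 and 0 with the replicate block or array weights, 1 and 1 over all rows, and 0 to 25 lower and 0 to 9 higher with 1 array left out. The lower count was 3 with a trend and robust fit, 15 after quantile normalization, 21 among genes with 5 different values, and 4 to 31 among these with 1 array left out (13 without transgenic replicate 3). Cdca7 changed by -0.0061 with the block or without transgenic replicate 3, and by up to 0.33 with another array left out. Rrm2 changed by -0.0167 without transgenic replicate 2, -0.25 without wild type replicate 2 and up to 0.37 otherwise. The replicate numbers share no stated source. Deviations of same-numbered arrays correlated at 0.139 and 0.048 across genes, and the block leaves 1 residual degree of freedom. The cause of these differences was not tested.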

Other observations

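Mitosis genes differ from replication genes in a further promoter element. The word TTTGAA on either strand, the core of the cell cycle homology region (CHR) through which many mitosis genes are repressed outside the late cycle, was found in 16 of 25 mitosis genes with a RefSeq promoter, or 64.0%. It was in 4 of 35 replication and S phase genes, or 11.4%, and in 17.2% of all genes tested with a promoter. For the E2F words the order was the other way, with 2 of 25 mitosis genes against 12 of 35. CCAAT on either strand was in 51.4% of the replication and S phase genes, 68.0% of the mitosis genes and 41.1% of all genes. The stretch of Ube2c, a mitosis gene that fell, is shown with this word in capitals (GRCm38.p6, chr2:164769829-164769928, plus strand).
Ube2c: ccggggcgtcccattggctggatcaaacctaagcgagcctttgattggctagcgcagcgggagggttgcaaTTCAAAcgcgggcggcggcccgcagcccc

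Within the replication and S phase genes, the 12 with an E2F word in the promoter had a median change of -0.07, ranging from -0.42 to 0.30, and the 23 without one had a median of -0.03, ranging from -0.25 to 0.07. All transgenic arrays lay below both wild type arrays in 4 of the 12 and in 7 of the 23, against 15.1% of all genes. Genes without a promoter entry are in neither group, among them Ccne2 (-0.47), the only gene past the test. Both E2f3 and Mcm6, which stand near opposite ends of the 42, carry E2F words.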
